A study of Mus musculus with 54 samples.

Results

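Genes whose symbol is Cd followed by a number, the surface antigens of the cluster of differentiation (CD) nomenclature, were followed through mouse bone marrow myeloid progenitors. Members were the rows of the count table in which any symbol was Cd, 1 to 3 digits and at most 2 more letters or digits, without Cd34, Cd74, Cd27 and Cd7 and with at least 50 unique molecular identifiers (UMIs, counts of single mRNA molecules) in all wells. The name rule found 89 of 27297 gene rows, and 45 of them reached the minimum. Of the 44 rows left out, 37 had 1 to 49 UMIs and 7 had none. The members just above the minimum were Cd300c (60 UMIs), Cd247 (55), Cd160 (51) and Cd2 (51), and the rows just below it were Cd86 (48), Cd33 (44), Cd59b (43), Cd4 (42) and Cd5l (42). The members took 71363 of 27845961 UMIs, or 0.256%. Cd2ap met the name rule, although it encodes an adaptor protein inside the cell that binds the tail of CD2.

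The cells were profiled with MARS-seq, in which sorted single cells are lysed in plates, the 3' ends of their mRNA are tagged with well and molecule barcodes, and 192 wells are amplified together as 1 pool. All 54 pools held C57BL/6 bone marrow cells that lacked lineage markers and Sca1 and carried the stem cell factor receptor cKit. The unsorted group was all such cells of wild-type mice (16 pools, 2732 cells with at least 500 UMIs). The 3 gates lay inside the fraction with CD34 and low FcgR, the surface phenotype of the common myeloid progenitor (CMP): CD41-positive (wild type, 2 pools, 336 cells), Flt3- and Csf1r-positive (wild type, 2 pools, 380 cells), and GFP- and MHC class II-positive in Irf8-GFP reporter mice (4 pools, 743 cells). Mice of these groups were 6 to 8 weeks old. The Cebpa knockout (8 pools, 847 cells) carried a floxed Cebpa and Mx1-Cre, which an interferon response switches on in blood cells and elsewhere, and its control (4 pools, 558 cells) carried the floxed gene. The labels give Mx1-Cre also for control replicates 3 and 4, but not for 5 and 6, and give poly(I:C), the inducer of Mx1-Cre, for knockout and control with no dose. These mice were 6 to 8 weeks old. Cebpe knockout cells (Cebpe-/-, 4 pools, 559 cells) and controls (Cebpe+/+, 2 pools, 250 cells) were grouped by the authors' well table and came from the animals labelled as 14 weeks old. Both of these control pools and 2 of the 4 knockout pools carry a poly(I:C) label (300 µg, 3 injections, 3 weeks before harvest). The other 2 knockout pools carry none, so by these labels the treatment was not balanced. The same labels name other groups for these pools, so which of them received poly(I:C) is uncertain.

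For 36 pools the sample label and the authors' well table named the same group, and the gates, the unsorted cells and the Cebpa groups rest on these. None of the Cebpe pools was among them: the 4 pools the table names Cebpe knockout are the libraries labelled Cebpa control 1 and 2 and Cebpe control 1 and 2, and the 2 it names control are the libraries labelled Cebpa knockout 3 and 4. Kept cells held 121254 to 852363 UMIs per pool. Each group carried 1 mouse identifier, and nothing in the labels says that pools came from separate animals, so a p-value here reflects pool-to-pool spread and no more, and that spread may be technical. The CD41 gate shared a sequencing batch (SB17) with 4 of the unsorted pools. The Flt3 Csf1r gate (SB20) and the Irf8-GFP MHCII gate (SB25) shared none with the unsorted cells, and batch and gate cannot be told apart there. In the unsorted cells, 0 of the 33 members tested had ranges that did not overlap between the 4 pools of SB17 and the 12 of SB19, beside 1.20% of all 8533 genes. No cell barcode combination was shared by pools of 1 batch. Each of the 3 gates was set against the same 16 unsorted pools, so these comparisons share their controls. For the gates, the surface gates and the Cebpa groups, the share of all genes whose ranges did not overlap was not counted. Statements there that ranges do not overlap describe the gene named and have no background beside them. Levels below are UMIs summed over the cells of a pool and divided by its TMM-scaled total (CPM), and in such sums fewer cells of a type and less RNA per cell cannot be told apart.

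CD numbers were given to leukocyte surface molecules in the order in which antibodies defined them, so the members share the cell surface and not a structure. Tetraspanins cross the membrane several times and organise integrins and receptors into microdomains. Others are small lipid-anchored or mucin-like proteins (CD24, CD52), regulators of complement, lectins, paired activating and inhibitory receptors of the CD300 and SLAM families, and costimulatory molecules that antigen-presenting cells show to lymphocytes. In bone marrow such antigens are the usual handles for sorting progenitors, and CD9 marks megakaryocytes and platelets, CD24 erythroid and other precursors, and CD93 early myeloid cells.

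Cd9, Cd63, Cd81 and Cd82, the 4 tetraspanins with the most UMIs, went different ways in the CD41 gate and in the surface gates below, and for that reason the 250 bases before their start sites are printed. Capitals mark matches, on either strand, to any of 4 short motifs: AGATAA (bound by GATA factors), GAGGAA (PU.1), CCNCNCCC (a loose pattern that takes in CACCC and GC boxes of KLF and SP factors) and TTGCNNAA (C/EBP factors). The sequences are from RefSeq on GRCm38.p6, not the mm9 build of the counts, and each is read on the gene's strand.
Cd9: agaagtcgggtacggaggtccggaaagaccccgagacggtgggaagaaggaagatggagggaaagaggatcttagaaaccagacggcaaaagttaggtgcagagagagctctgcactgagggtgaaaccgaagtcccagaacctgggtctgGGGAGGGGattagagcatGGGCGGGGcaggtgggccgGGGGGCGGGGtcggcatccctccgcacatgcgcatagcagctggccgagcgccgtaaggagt
Cd63: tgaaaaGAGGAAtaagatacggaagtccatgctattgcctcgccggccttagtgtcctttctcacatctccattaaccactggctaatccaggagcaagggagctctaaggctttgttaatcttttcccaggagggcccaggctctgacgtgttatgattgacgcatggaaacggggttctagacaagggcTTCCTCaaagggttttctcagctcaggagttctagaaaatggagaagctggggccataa
Cd81: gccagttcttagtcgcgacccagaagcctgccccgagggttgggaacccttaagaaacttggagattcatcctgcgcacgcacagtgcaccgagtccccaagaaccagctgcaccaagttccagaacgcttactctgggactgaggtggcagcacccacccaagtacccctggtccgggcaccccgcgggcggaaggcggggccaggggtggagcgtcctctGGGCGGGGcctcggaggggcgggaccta
Cd82: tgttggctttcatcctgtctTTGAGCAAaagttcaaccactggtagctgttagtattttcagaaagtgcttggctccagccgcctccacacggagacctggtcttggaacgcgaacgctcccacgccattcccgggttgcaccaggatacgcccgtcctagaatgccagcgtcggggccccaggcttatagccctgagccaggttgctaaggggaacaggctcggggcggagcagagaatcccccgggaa

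The windows lie at chr6:125494761-125495010 (Cd9, minus strand), chr10:128909095-128909344 (Cd63, plus strand), chr7:143052500-143052749 (Cd81, plus strand) and chr2:93462951-93463200 (Cd82, minus strand, the most upstream of 4 listed starts). Cd9 held 4 CCNCNCCC matches, at -99, -81, -62 and -60 from the start, the last 2 overlapping each other. Cd81 held 1 CCNCNCCC match at -28. None of these CCNCNCCC matches held the letters CACCC on either strand. Cd63 held 2 PU.1 matches at -244 and -59, and Cd82 held 1 C/EBP match at -230. None of the 4 windows held AGATAA. Among all 32851 listed windows of this length, 45.9% held the CCNCNCCC letters, 23.3% the PU.1 letters, 9.99% AGATAA and 9.56% the C/EBP letters. GC content was 61.6% for Cd9, 48.8% for Cd63, 65.6% for Cd81 and 58.4% for Cd82. An entry was listed for 30 of the 45 members.

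Most member UMIs came from few genes. Cd52 (15111 UMIs), Cd47 (12475), Cd81 (9441) and Cd24a (8524) held 63.8% of them. Next came Cd63 (2929), Cd82 (2866), Cd9 (2540) and Cd37 (2000). In all, 13 members had 1000 or more UMIs in kept cells, 14 had a UMI in every pool, and 10 had under 100 UMIs in all wells. The 108 wells that received no cell held 14 UMIs of 7 members among 6279 UMIs of any gene. The rows of Cd47, Cd1d2, Cd2ap, Cd244 and Cd69 are joined with a further symbol (Cd1d2 with Cd1d1), so their values cannot be given to 1 gene and are uncertain, as are those of Cd209f, a gene with near-identical relatives.

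**Figure D1:**
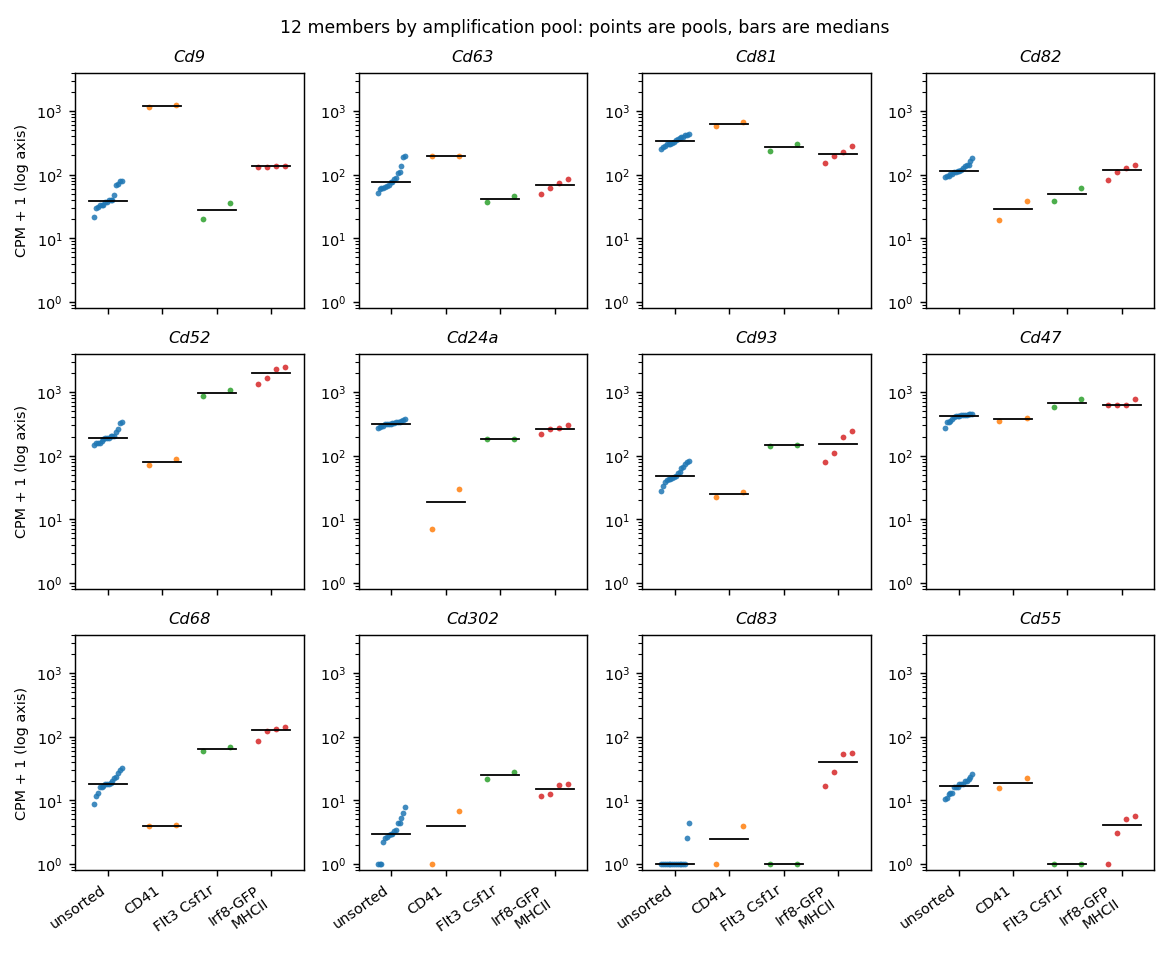
CPM + 1 (log axis) of 12 members in the unsorted cells (16 pools) and the CD41 (2), Flt3 Csf1r (2) and Irf8-GFP MHCII (4) gates; each point is a pool, placed by value within its group, and bars are medians. Cd9 stands above 1000 CPM only in the CD41 gate among these 4 groups, and Cd83 has a UMI in each of the 4 Irf8-GFP MHCII pools.

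In the CD41 gate the steepest rise among the members was that of Cd9, a tetraspanin of megakaryocytes and platelets. Cd9 stood at 1231 and 1165 CPM in the 2 gate pools against 20.8 to 79.7 with a median of 37.3 in the unsorted pools, with no overlap (log2 fold change 4.77 ± 0.20, adjusted p = 1.19e-17; edgeR's quasi-likelihood test with Benjamini-Hochberg adjustment over all genes, here and below, with ± as the SE). Of 33 members that passed the filter on low counts, 6 were higher and 5 lower, beside 42.7% of all 8533 genes called in either direction, 20.4% higher and 22.3% lower. The median log2 fold change was -0.05 over these members and -0.11 over all genes tested. Itga2b, which encodes CD41 itself and is no member, was at 1683 and 1753 CPM in the gate and at 11.0 to 47.4 in the unsorted pools, although its row too is joined with a further symbol.

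Tetraspanins made up 5 of the 6 members that were higher in the CD41 gate, with 7 tested. Besides Cd9 these were Cd151, a partner of laminin-binding integrins (25.9 and 39.6 CPM against 0 to 15.1 with a median of 8.38; 1.94 ± 0.44, adjusted p = 0.000785), and Cd81, a broadly expressed tetraspanin (585 and 665 against 249.5 to 431 with a median of 338; 0.86 ± 0.17, adjusted p = 0.000224). Cd63, a tetraspanin of lysosomes and of granules that are released (196 and 192 against 50.2 to 192 with a median of 75.5; 1.09 ± 0.34, adjusted p = 0.0105), overlapped the highest unsorted pool. Cd37, a tetraspanin of leukocytes, was at 86.5 and 116 against 41.1 to 84.6 with a median of 58.3 (0.72 ± 0.27, adjusted p = 0.0313). Cd82, the tetraspanin also known as KAI1, went the other way, at 37.5 and 18.3 against 91.1 to 179 with a median of 112 CPM (-2.09 ± 0.34, adjusted p = 1.27e-05). Cd53 had 0 UMIs in the gate against 52 in the unsorted pools and was not past the threshold (adjusted p = 0.124). The sixth higher member was Cd79b, a signalling chain of the B cell receptor, at 89.4 and 85.4 against 14.1 to 70.2 with a median of 43.1 CPM (1.17 ± 0.32, adjusted p = 0.004).

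All 4 mucin-like members tested fell in the CD41 gate. Cd24a, a heavily glycosylated antigen on a lipid anchor, was at 28.8 and 6.10 CPM against 267 to 371 with a median of 318 (-4.16 ± 0.27, adjusted p = 2.01e-13), the steepest fall among the members called. Cd52, a short peptide on a lipid anchor, was at 86.5 and 70.1 against 148 to 339 with a median of 189.6 (-1.39 ± 0.32, adjusted p = 0.00107). Cd164, a sialomucin of stem and progenitor cells, was at 11.5 and 21.3 against 25.1 to 68.7 with a median of 46.5 (-1.48 ± 0.38, adjusted p = 0.00226). Cd68, a lysosomal glycoprotein of macrophages, had 2 UMIs in the gate against 184, a level lower by 6.16-fold (95% exact binomial interval 1.68 to 51.3, counting error only), with adjusted p = 0.00422. None of these 4 overlapped the unsorted range. Among the abundant members that were not called, given with intervals per gene that are not adjusted, Cd47, the self signal that restrains phagocytosis, was at 392 and 348 CPM against 272 to 451 with a median of 423 (95% interval of the log2 fold change -0.43 to 0.19), and Cd44, the hyaluronan receptor, gave an interval of -0.94 to 0.10. For Cd93 the interval was -2.04 to -0.15 (adjusted p = 0.0657) and for Cd320 -0.07 to 0.92.

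Within batch SB17, with its 4 unsorted pools, Cd9 was 4.85, Cd24a -4.11, Cd82 -2.20, Cd52 -1.62, Cd81 1.11, Cd151 1.56 and Cd79b 1.12 on the log2 scale, each past the threshold. Cd164 (-1.08, adjusted p = 0.066), Cd63 (0.84, 0.109) and Cd37 (0.53, 0.128) were not, and Cd68 did not pass the filter. With 1 of the 2 gate pools left out, in fits where the remaining pool is assumed to vary like the pools of the other groups, Cd9, Cd24a, Cd81, Cd82 and Cd52 kept their call either way, and 6 members in all were called without replicate 1 and 7 without replicate 2. Megakaryocyte markers summed to 14623 to 15608 CPM in the gate and 148 to 416 in the unsorted pools, with UMIs for 10 of 10 in the gate, and erythroid markers to 1134 to 1680.5 and 7831 to 11727, with 12 of 12. The part of these differences in cell types in the members' values was not tested.

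The Flt3 Csf1r gate was led among the members called higher by Cd302, a lectin-like receptor of phagocytes, and Cd300lb, an activating receptor of the CD300 family. Cd302 stood at 21.0 and 27.2 CPM against 0 to 6.87 with a median of 1.97 in the unsorted pools (3.22 ± 0.50, adjusted p = 6.65e-06), and Cd300lb at 42.0 and 46.6 against 0 to 8.64 with a median of 4.34 (3.22 ± 0.38, adjusted p = 9.79e-08). Neither overlapped the unsorted range. Cd302 passed the filter on low counts only through this gate and so had to be higher here. Of 33 members tested, 15 were higher and 6 lower, beside 39.8% of all genes called in either direction, 19.8% higher and 20.0% lower. The median log2 fold change was 0.75 over these members and -0.05 over all genes.

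Cd52 carried the most UMIs of the members that were higher in the Flt3 Csf1r gate, at 853 and 1093 CPM against 148 to 339 with a median of 189.6 (2.24 ± 0.20, adjusted p = 3.4e-10). Cd93, a C-type lectin-like receptor of early myeloid and endothelial cells, was at 140.1 and 148 against 26.4 to 80.4 with a median of 46.6 (1.49 ± 0.28, adjusted p = 0.000115). Cd79b was at 147 and 130.1 against 14.1 to 70.2 with a median of 43.1 (1.83 ± 0.26, adjusted p = 1.82e-06), and Cd68 at 57.8 and 68.0 against 7.90 to 31.1 with a median of 17.3 (1.76 ± 0.28, adjusted p = 8.27e-06). All 4 cleared the unsorted range. All 3 CD300 receptors tested were called: beside Cd300lb, the inhibitory Cd300a rose by 1.61 ± 0.32 on the log2 scale, and Cd300lg, a receptor of vessel walls, by 2.05 ± 0.80 on 8 UMIs (adjusted p = 0.0427). Among tetraspanins, Cd53 (2.21 ± 0.62), Cd151 (2.10 ± 0.37) and Cd37 (1.05 ± 0.23) rose. The haemoglobin scavenger receptor Cd163 (2.37 ± 0.72, 11 UMIs), the lipid-presenting Cd1d2 row (1.70 ± 0.31), Cd47 (0.75 ± 0.14) and Cd164 (0.62 ± 0.24) completed the 15.

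Among the 6 members that fell in the Flt3 Csf1r gate, of which Cd55 passed the filter only through the unsorted pools, 2 were not counted there at all. Cd55, which breaks up complement convertases on the cell surface, had 0 UMIs in the gate against 165 in the unsorted pools (each pool between 9.49 and 25.1 CPM), at least 5.93-fold lower when the gate is set to 3 counts over the group. Cd97, an adhesion receptor that binds CD55, had 0 against 72 UMIs, at least 2.59-fold lower (adjusted p = 0.00534). Cd59a, which blocks the membrane attack complex of complement, had 2 UMIs against 124, a level lower by 6.69-fold (95% exact binomial interval 1.81 to 55.8, counting error only), and was not past the threshold (adjusted p = 0.0558). The tetraspanins Cd82 (61.3 and 36.9 CPM against 91.1 to 179 with a median of 112; -1.28 ± 0.27, adjusted p = 0.000357) and Cd63 (36.8 and 44.7 against 50.2 to 192 with a median of 75.5; -1.16 ± 0.43, adjusted p = 0.0326) were lower, as was Cd24a (180.4 and 184 against 267 to 371 with a median of 318; -0.82 ± 0.16, adjusted p = 0.000183). Cd99l2, a relative of the migration molecule CD99, was at 10.5 and 7.77 against 19.0 to 47.0 with a median of 28.3 (-1.66 ± 0.42, adjusted p = 0.00232). Cd9 (interval -1.43 to 0.12), Cd81 (-0.74 to 0.01), Cd44 (0.09 to 0.91) and Cd320, the receptor for vitamin B12 bound to its carrier (-0.28 to 0.65), were not called.

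With either of the 2 Flt3 Csf1r pools left out, where the remaining pool is again assumed to vary like the other groups, 13 of the 21 calls held in both fits, and 16 members were called without replicate 1 and 13 without replicate 2. Cd163, Cd164, Cd300lg, Cd63 and Cd97 were lost both ways, and Cd37, Cd53 and Cd99l2 without replicate 2. The counted erythroid markers summed to 99.0 to 119 CPM in this gate, with 6 of 12 at 0 (among them Gata1 and Epor), against 7831 to 11727 in the unsorted pools. Stem or multipotent markers summed to 1940.1 to 2105 against 226 to 369, and monocyte markers to 2287 to 2513 against 634 to 2134. In the stem list, Flt3, sorted on, stood at 350 and 454 CPM against 4.12 to 53.1. Cd34, whose protein defines the CMP fraction, stood at 849 and 924 against 93.4 to 188. In the monocyte list, Csf1r, sorted on, stood at 399 and 433 against 55.8 to 106, and Irf8 at 1250 and 1280 against 169 to 283. The other genes of these lists were not summed apart. The part of these cell types in the members' values was not tested.

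In the Irf8-GFP MHCII gate Cd83, Cd40 and Cd209f were counted in every pool, with few or no UMIs in the unsorted pools. All 3 passed the filter on low counts only through this gate, so their levels are given as description only. Cd83, which stabilises MHC class II on mature dendritic cells, was at 15.8, 51.8, 27.4 and 54.6 CPM in the 4 pools and had 3 UMIs in the unsorted pools against 84, a level higher by 123-fold (95% exact binomial interval 40.5 to 606, counting error only). Cd40, the receptor for the T cell ligand CD40L, was at 4.32, 25.1, 31.6 and 62.7 CPM with 65 UMIs against 0, at least 94.9-fold higher with the unsorted group set to 3 counts. The lectin row Cd209f was at 24.5, 14.1, 8.42 and 22.3 against 0 to 2.75 with a median of 0 (41 and 4 UMIs). Each of the 4 gate pools was above each unsorted pool for all 3. Of 33 members tested, 24 were higher and 5 lower, beside 49.6% of all genes called in either direction, 25.5% higher and 24.1% lower. Of the 24, Cd40, Cd83, Cd209f, Cd300lg, Cd163, Cd244, Cd69, Cd48 and Cd97 passed the filter only through this gate, and of the 5, Cd55 and Cd59a passed it only through the unsorted pools. These members had to differ in the direction they did, so their part of the counts and their p-values support nothing. The median log2 fold change was 1.36 over the members tested, these included, and 0.01 over all genes.

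Cd52 reached its highest level of the 4 wild-type or reporter groups here, at 1339, 1656, 2334 and 2492 CPM against 148 to 339 with a median of 189.6 in the unsorted pools (3.25 ± 0.15, adjusted p = 5.4e-17). Cd68 was at 83.5, 141, 124 and 134 against 7.90 to 31.1 with a median of 17.3 (2.70 ± 0.19, adjusted p = 5.52e-13). Cd9 was at 132, 130.4, 137 and 138 against 20.8 to 79.7 with a median of 37.3 (1.62 ± 0.21, adjusted p = 1.69e-07), a level far under that of the CD41 gate. None of the 3 overlapped the unsorted range. Both SLAM family members tested were higher: Cd244, a receptor of natural killer and myeloid cells (38.9, 37.7, 25.3 and 28.3 CPM against 0 to 8.78 with a median of 2.84; 3.33 ± 0.39, adjusted p = 2.75e-08), and its ligand Cd48 (13.0, 12.6, 29.5 and 24.3 against 0 to 13.7 with a median of 4.48; 1.97 ± 0.47, adjusted p = 0.000807), which overlapped the highest unsorted pool. Cd244 and Cd48 passed the filter only through this gate, so both had to be higher, and the family count and these p-values support nothing.

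All 3 CD300 receptors tested were higher in the Irf8-GFP MHCII gate, Cd300lg by 3.67 ± 0.48, Cd300lb by 2.06 ± 0.35 and Cd300a by 1.03 ± 0.26 on the log2 scale. The 3 lectin-like members were higher too: Cd302 by 2.44 ± 0.43, Cd93 by 1.63 ± 0.21, and Cd69, an early activation antigen that holds cells in tissue, by 2.41 ± 0.53. Of these families, Cd300lg and Cd69 passed the filter only through this gate and had to be higher, as did Cd163 and Cd97 below. Cd93 varied within the gate, at 245, 193, 80.0 and 107 CPM, the first pair from 1 plate and the second from the other. Cd97 split the same way, at 21.6, 20.4, 6.31 and 8.10, while Cd48 and Cd52, given above, were higher in the second pair. Cd163 (3.60 ± 0.46), Cd1d2 (1.37 ± 0.25), Cd2ap (1.50 ± 0.29), Cd79b (1.34 ± 0.21), Cd97 (1.03 ± 0.38), Cd47 (0.71 ± 0.10) and Cd164 (0.51 ± 0.18) were also higher. Among tetraspanins Cd53 (1.36 ± 0.54), Cd151 (1.21 ± 0.32) and Cd37 (0.53 ± 0.19) rose with Cd9, Cd81 fell by 0.71 ± 0.15 (adjusted p = 0.000209), and Cd82 (interval -0.41 to 0.25) and Cd63 (-1.01 to 0.11) were not called.

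Both complement regulators tested were lower in this gate, but both passed the filter only through the unsorted pools, so they had to be. Cd55 was at 0, 4.71, 2.10 and 4.05 CPM against 9.49 to 25.1 with a median of 16.0, with no overlap (-2.54 ± 0.43, adjusted p = 1.48e-05), and Cd59a at 7.20, 3.14, 4.21 and 0 against 0 to 34.1 with a median of 10.1, with overlap (-1.63 ± 0.66, adjusted p = 0.0409). Cd99l2 (13.0, 12.6, 4.21 and 14.2 against 19.0 to 47.0 with a median of 28.3; -1.38 ± 0.29, adjusted p = 0.000214) and Cd24a (217, 269, 263 and 306 against 267 to 371 with a median of 318; -0.29 ± 0.11, adjusted p = 0.0332) were the remaining 2. Cd44 gave an interval of -0.32 to 0.33 and Cd320 of -0.64 to 0.09. Of the 29 calls, 19 held with each gate pool left out in turn. Cd209f, Cd163, Cd48 and Cd69 no longer passed the filter without 1 or another pool, Cd97 and Cd24a were lost without replicate 3 or 4, Cd37 and Cd53 without replicate 5 or 6, Cd59a without 4, 5 or 6, and Cd164 without 6. Cd53, for example, was 0.54 without replicate 5 (adjusted p = 0.498). Dendritic markers summed to 11938 to 20696 CPM here against 62.3 to 406, with UMIs for 10 of 10, and macrophage or stroma markers to 109 to 298 against 3.79 to 30.6. The dendritic list holds genes of the MHC class II sorted on, of which H2-Aa alone stood at 3387 to 5746 CPM against 6.03 to 79.9. The part of these cell types in the members' values was not tested.

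**Figure D2:**
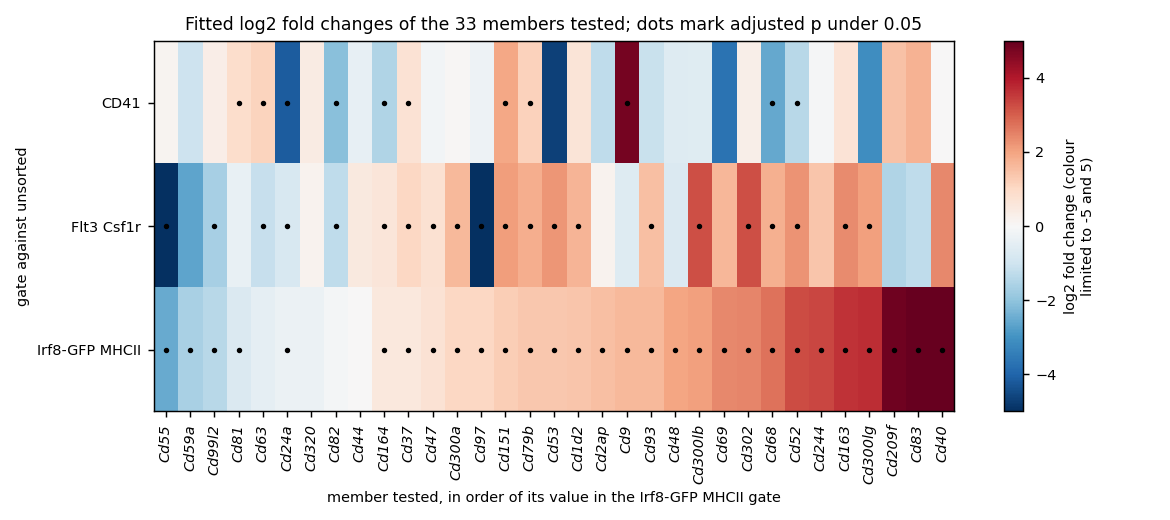
Fitted log2 fold change (colour, limited to -5 and 5) of the 33 members tested in each gate against the unsorted cells, ordered by value in the Irf8-GFP MHCII gate; dots mark adjusted p under 0.05. The 3 rows share the unsorted pools, and the colour of a member with 0 UMIs in 1 group is a fitted value, not a bound.

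Set against each other, the Irf8-GFP MHCII gate had 11 of 33 members higher than the Flt3 Csf1r gate and 0 lower, beside 20.9% of all genes called in either direction, 10.7% higher and 10.2% lower. On the log2 scale the median fold change was 0.71 over the members tested and 0.04 over all genes. With the Flt3 Csf1r gate at 0 UMIs, Cd83 (84 UMIs) was at least 13.2-fold, Cd209f (41) at least 6.45-fold and Cd97 (35) at least 5.51-fold higher with that gate set to 3 counts. Cd40 had 65 UMIs against 1, a level higher by 30.7-fold (95% exact binomial interval 5.32 to 1231, counting error only), and Cd48 had 43 against 3, higher by 6.77-fold (95% exact binomial interval 2.17 to 34.1, counting error only). Cd9 was at 132, 130.4, 137 and 138 CPM against 35.0 and 19.4 (2.28 ± 0.41, adjusted p = 0.0003), and Cd82 at 82.1, 138, 126 and 109 against 61.3 and 36.9 (1.20 ± 0.30, adjusted p = 0.00556). Cd244 (1.96 ± 0.65), Cd52 (1.01 ± 0.27), Cd68 (0.94 ± 0.31) and Cd24a (0.53 ± 0.18) made up the rest. Cd83, Cd209f, Cd97, Cd40, Cd48 and Cd244 passed the filter only through the Irf8-GFP MHCII gate, so these 6 of the 11 had to be higher. Cd69, Cd163 and Cd300lg, which were not called, passed it only through that gate too. The median over the members includes all 9 and is raised by this selection. Among the abundant members not called, the intervals were -0.37 to 0.29 for Cd47, -0.77 to 0.09 for Cd81, -0.25 to 1.66 for Cd63, -1.06 to 0.02 for Cd37, -0.51 to 0.80 for Cd93, -0.98 to -0.01 for Cd44, -1.10 to 0.11 for Cd79b, -0.65 to 0.42 for Cd164 and -1.01 to 0.08 for Cd320. No member was lower past the threshold: at an unadjusted p under 0.05, 16 differed in either direction, and DESeq2 called 10, all higher. Without Flt3 Csf1r replicate 1 the count was 5 and without replicate 2 it was 4, and Cd83, Cd9 and Cd97 kept their call in each fit that left out 1 pool, with a lone Flt3 Csf1r pool assumed to vary like the other groups.

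This pair of gates also compares batch SB25 with SB20. By the authors' table, 2 further pools of SB25 are Flt3 Csf1r cells, although labelled Irf8-GFP MHCII 1 and 2, and 2 are Irf8-GFP MHCII cells, although labelled Flt3 Csf1r 5 and 6. Within SB25 by that table, Cd9 was 3.22, Cd82 0.75, Cd52 0.75, Cd68 0.72, Cd244 1.36 and Cd24a 0.54 on the log2 scale, and these and Cd83, Cd40, Cd209f and Cd97 were past the threshold. Cd48 was 0.22 (adjusted p = 0.791). In unscaled CPM, Cd48 stood at 1.69 and 3.68 in the agreeing Flt3 Csf1r pools, at 19.5 and 11.3 in the SB25 pair and at 80.7 and 45.5 in the libraries labelled Cebpa knockout 1 and 2, which the table also calls Flt3 Csf1r. The Flt3 Csf1r pools by the table thus spanned the Irf8-GFP MHCII pools for this gene.

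Index sorting recorded surface CD34 and an Fcγ receptor stain, here FcgR, for 2708 unsorted cells, in columns 12 and 13 of the well table. The header of column 13 names FcgR3. Cells were gated by their ranks within a plate. Cells with CD34 above the plate median were called CMP when FcgR was outside the highest of 3 equal parts (532 cells, 19.6%) and GMP, the granulocyte-macrophage phenotype, when it was inside (825, 30.5%). Cells with CD34 at or under the median and FcgR outside that part were called MEP, the megakaryocyte-erythroid phenotype (1270, 46.9%), and 81 fell in no gate. Cut points differed between plates, from 80.0 to 259.5 for CD34 and from 483 to 1107 for FcgR, in the arbitrary units of the file. Median UMIs per cell were 1939.5 in CMP, 3043 in GMP and 4346 in MEP. Each pool gave 1 sum per gate, and the pool was a block in the test. Which members passed the filter on low counts through 1 surface gate alone was not counted. The calls between surface gates below may therefore follow in part from that filter.

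Passing from the CMP to the MEP gate, Cd24a, Cd82 and Cd81 rose and Cd93, Cd79b, Cd52, Cd63, Cd9 and Cd37 fell. Of 11 members tested these were 3 higher and 6 lower, beside 50.9% of all 4166 genes called in either direction, 25.0% higher and 25.9% lower. Over the members tested the median log2 fold change was -0.73, and it was 0.03 over all genes. Cd24a was at 381 to 505 with a median of 465 CPM in the 16 MEP sums against 90.4 to 265 with a median of 134 in the CMP sums (1.66 ± 0.11, adjusted p = 3.96e-23), and Cd82 at 122 to 233 with a median of 150.2 against 12.9 to 109.6 with a median of 64.1 (1.40 ± 0.16, adjusted p = 1.27e-11). The ranges did not overlap for either. Cd81 was at 338 to 532 with a median of 429 against 84.9 to 499 with a median of 250.1, with overlap (0.70 ± 0.11, adjusted p = 4.86e-08).

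The lectin-like Cd93 fell most steeply, from 36.1 to 191 with a median of 89.4 CPM in CMP to 0 to 12.2 with a median of 2.75 in MEP (-4.51 ± 0.28, adjusted p = 1.25e-23), and Cd52 from 242 to 726 with a median of 401 to 16.8 to 151 with a median of 38.7 (-3.09 ± 0.16, adjusted p = 9.29e-29). Both were without overlap. Cd79b was at 0 to 34.7 with a median of 6.98 in MEP against 26.9 to 165 with a median of 75.4 in CMP (-3.13 ± 0.29, adjusted p = 1.68e-15), and the tetraspanins Cd63 (-2.44 ± 0.27, adjusted p = 1.59e-12), Cd9 (-2.18 ± 0.25, adjusted p = 1.18e-11) and Cd37 (-0.73 ± 0.21, adjusted p = 0.00243) were lower with ranges that overlapped. Of the 5 tetraspanins tested, 2 rose and 3 fell. Cd47 (268 to 482 with a median of 425 against 265 to 611 with a median of 448 CPM; interval -0.26 to 0.04) and Cd44 (interval -0.56 to 0.04) were not called. Erythroid markers summed to 14014 to 17739 CPM in MEP and 1119 to 6227 in CMP, with UMIs for 12 of 12 in both, and neutrophil markers to 1288 to 5479 and 5930.4 to 26198, with 9 of 9. Their part in the members' values was not tested.

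In the GMP gate Cd63 and Cd93 were higher than in the CMP gate. Cd63 was at 135 to 445 with a median of 209.7 CPM in GMP against 0 to 181 with a median of 81.0 in CMP (1.52 ± 0.18, adjusted p = 1e-10), and Cd93 at 77.5 to 203 with a median of 131 against 36.1 to 191 with a median of 89.4 (0.58 ± 0.17, adjusted p = 0.00778). These 2 of 11 members tested were higher and 0 were lower, beside 20.7% of all genes called in either direction, 10.3% higher and 10.4% lower, and the ranges overlapped for both. Whether Cd63 and Cd93 passed the filter through the GMP sums alone was not counted. The median log2 fold change was -0.10 over the members tested and -0.03 over all genes. At an unadjusted p under 0.05, 5 members differed in either direction, and DESeq2 called 2. Cd52 (interval -0.20 to 0.27), Cd79b (-0.37 to 0.49), Cd47 (-0.27 to 0.06), Cd44 (-0.51 to 0.14), Cd82 (-0.52 to 0.32) and Cd9 (-0.68 to 0.20) were not called, and neither were Cd24a (-0.37 ± 0.15, adjusted p = 0.071), Cd81 (-0.29 ± 0.13, 0.112) and Cd37 (0.45 ± 0.20, 0.0985). Neutrophil markers summed to 41507 to 64105 CPM in GMP against 5930.4 to 26198 in CMP. Leaving out cells near a cut kept 1 CMP sum, and there Cd93 was -0.12 and Cd63 1.17, with neither past the threshold.

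**Figure D3:**
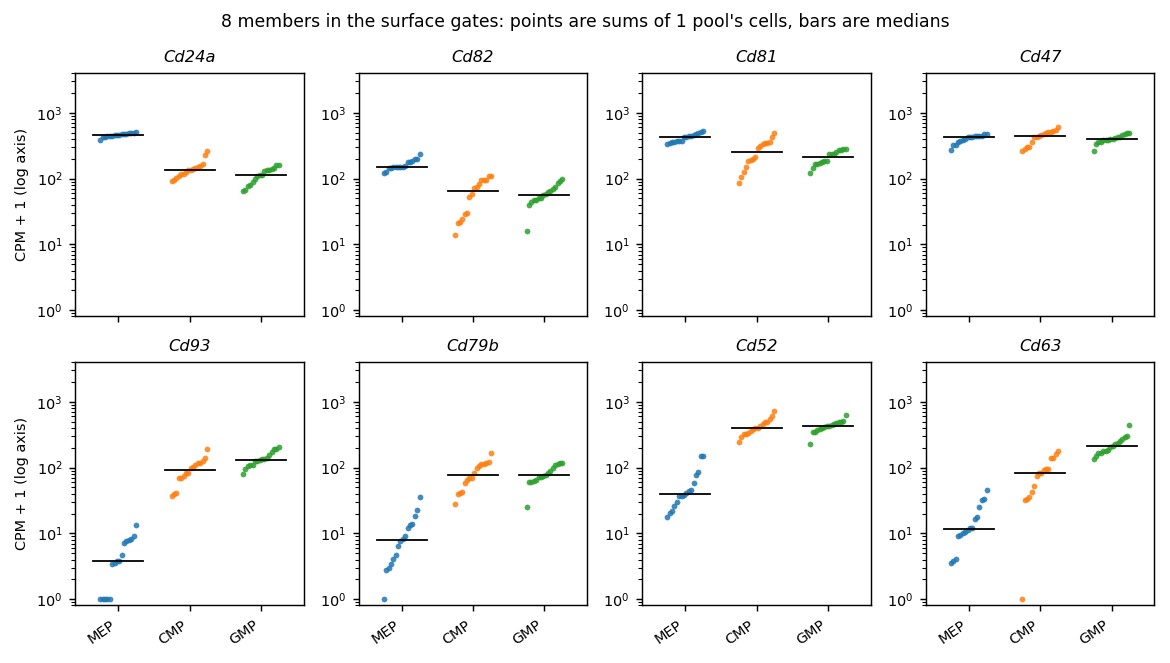
CPM + 1 (log axis) of 8 members in the MEP, CMP and GMP surface gates of unsorted cells; each point is the sum of 1 pool's cells in a gate (16 per gate, placed by value) and bars are medians. Cd24a and Cd82 are highest in MEP, Cd93, Cd79b and Cd52 are low there, and Cd47 is at a like level in all 3.

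Split into 5 equal bins of the within-plate rank of each surface stain, the members showed several profiles, which are given without a test because the bins share pools and libraries. From the lowest to the highest FcgR bin, Cd24a stood at 535, 447, 193, 141, 93.3 CPM, Cd82 at 203, 147, 58.8, 59.1, 54.3 and Cd81 at 445, 454, 319, 244, 201. These 3 were lower in the highest bin than in the lowest. In the same bins Cd52 stood at 23.2, 73.8, 302, 383, 451, Cd93 at 2.29, 8.00, 61.4, 102, 137 and Cd63 at 8.49, 11.1, 57.1, 223, 227 CPM. Cd63 made its largest step between bins 3 and 4, while Cd52 and Cd93 were already higher in bin 3 than in bin 2. Cd9 stood at 6.21, 22.2, 90.8, 84.0, 67.5 CPM, highest in the middle bin, and Cd37 at 35.3, 44.5, 65.7, 94.5, 99.3. Cd47 (432, 411, 425, 410.2, 386) and Cd44 (88.8, 79.6, 79.5, 78.8, 85.05) had no bin far from the others.

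Along surface CD34 the order was alike. Cd24a stood at 469, 501, 303, 121, 95.6 CPM from the lowest to the highest bin, and Cd81 at 434, 456, 383, 227, 183. Cd93 stood at 3.34, 4.70, 39.8, 124, 134, Cd79b at 5.84, 7.84, 51.9, 80.8, 78.9 and Cd68 at 3.76, 3.92, 14.5, 44.2, 43.2 CPM. All 3 were low in the 2 lowest bins and high in the 2 highest. Among less counted members, Cd99l2 stood at 39.6, 37.6, 32.6, 17.0, 15.0 CPM, lower in each bin than in the one before, and Cd164 at 50.1, 42.3, 41.6, 55.0, 47.8, highest in bin 4.

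**Figure D4:**
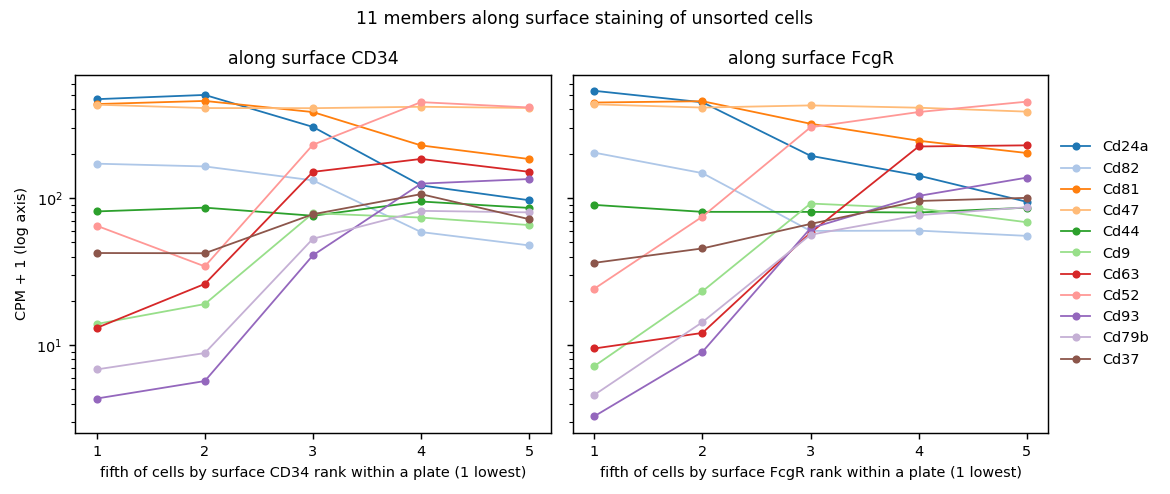
CPM + 1 (log axis) of 11 members in 5 equal bins of unsorted cells by within-plate rank of surface CD34 (left) and FcgR (right); each point is the sum over all cells of a bin. Cd24a, Cd82 and Cd81 are lower in the highest bin of both stains than in the lowest, Cd93, Cd79b, Cd52 and Cd63 are higher in the highest bins than in the lowest, and Cd47 lies between 386 and 432 CPM in every bin.

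In the Cebpa knockout, Cd52 fell. The targeted gene had 3 UMIs over the 8 knockout pools (0 or 1 per pool) and 195 over the 4 control pools (35 to 64). Cd52 stood at 58.2 to 213 with a median of 116 CPM in the knockout pools against 385, 354, 514 and 555 in the control pools, with no overlap (-1.81 ± 0.24, adjusted p = 3.84e-05). Cd63 was at 48.8 to 74.9 with a median of 59.97 against 85.3, 74.5, 118 and 109 (-0.65 ± 0.20, adjusted p = 0.0445), and its lowest control pool lay just under the highest knockout pool. Cd63 lost its call in 9 of the 12 fits that left out 1 pool, all but those without knockout replicate 9 and control replicates 3 and 4, with adjusted p from 0.0623 to 0.179, while Cd52 kept its call in all 12. Of 11 members tested these 2 were lower and 0 were higher, beside 8.75% of all genes called in either direction, 3.09% higher and 5.67% lower. Over the members tested the median log2 fold change was -0.39, and it was 0.02 over all genes. At an unadjusted p under 0.05, 5 members differed in either direction, and DESeq2 called 3.

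Cd82 (-0.79 ± 0.26, adjusted p = 0.0592) and Cd9 (0.85 ± 0.27, 0.0577) lay just outside the threshold, in opposite directions. Cd9, like Cd37, Cd44 and Cd320 below, passed the filter only through the knockout pools. It was above the cut of the filter in 8 knockout and 3 control pools. Cd24a (interval -0.99 to 0.02), Cd81 (-0.51 to 0.04), Cd47 (-0.28 to 0.35), Cd37 (-1.06 to 0.27), Cd44 (-0.07 to 1.34), Cd164 (-1.20 to 0.12) and Cd320 (0.09 to 1.58) were not called. Several members split the controls by plate: Cd24a was at 470.3, 413, 655 and 707 CPM in control replicates 3 to 6 and Cd37 at 42.6, 32.5, 115 and 109, the first pair from the plate labelled Mx1-Cre. Without that plate Cd52 was -2.06 and Cd63 -0.95, and 9 members were called in place of 2. Without the other control plate Cd52 was -1.51, and Cd63 was -0.42 and no longer called (adjusted p = 0.372). In the other batch with both Cebpa groups, SB23, grouped by the authors' table, Cd52 was -1.32 (adjusted p = 1.69e-05) and Cd63 -0.48 (0.425). Neutrophil markers summed to 131 to 1293 CPM in the knockout pools and 10437 to 21407 in the controls, and erythroid markers to 13622 to 15603 and 7794 to 12845, and their part in the fall of Cd52 was not tested.

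In the Cebpe knockout, grouped by the authors' table, Cd177 and 5 further members rose. The targeted gene had 0 UMIs in the 4 knockout pools and 61 in the 2 control pools. Cd177, a neutrophil surface antigen that presents proteinase 3, was at 82.5, 68.1, 58.6 and 71.8 CPM in the knockout pools with 145 UMIs against 0 in the controls, at least 28.8-fold higher with the controls set to 3 counts over the group. The whole table held 157 UMIs of this gene. Of 18 members tested, 6 were higher and 3 lower, beside 23.3% of all genes called in either direction, 13.5% higher and 9.84% lower, and all 9 were without overlap between the groups, beside 41.7% of all 7369 genes without overlap. Cd177 and Cd68 passed the filter only through the knockout pools, so these 2 of the 6 had to be higher. On the log2 scale the median fold change was 0.17 over the members tested, these 2 included, and -0.01 over all genes. Cd68 lost its call without the library labelled Cebpa knockout 4, which leaves 1 control pool, at 1.48 (adjusted p = 0.0595).

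Cd52 was at 941, 786, 711 and 705 CPM in the knockout pools against 279 and 248 in the controls (1.57 ± 0.15, adjusted p = 7.67e-09). Cd63, which neutrophils carry on their primary granules, was at 337, 392, 497 and 399 against 171 and 94.8 (1.62 ± 0.20, adjusted p = 3.54e-07). Cd37 (1.48 ± 0.24, adjusted p = 2.51e-05), Cd68 (1.76 ± 0.42, adjusted p = 0.00266) and Cd300a (1.42 ± 0.30, adjusted p = 0.000778) were also higher. The 3 members that fell were Cd24a, at 131, 136, 137 and 131 against 275 and 363 (-1.25 ± 0.16, adjusted p = 8.54e-07), Cd81, at 228, 238, 208 and 185 against 361 and 322 (-0.68 ± 0.15, adjusted p = 0.00126), and Cd9, at 31.5, 41.4, 58.6 and 23.9 against 119 and 83.4 (-1.36 ± 0.28, adjusted p = 0.000597). Cd47 (interval -0.10 to 0.51), Cd82 (-0.44 to 0.54), Cd44 (-0.47 to 0.74), Cd93 (-0.22 to 0.91), Cd79b (-0.10 to 1.18), Cd164 (-0.70 to 0.58) and Cd320 (-0.44 to 0.69) were not called. Grouped by the sample labels in place of the table, the sign of all 9 reversed.

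The labels of these pools bear on their treatment as well: the 2 libraries labelled Cebpa control among the knockout pools and both control pools carry a poly(I:C) label (300 µg, 3 injections, 3 weeks before harvest), and the 2 labelled Cebpe control do not. Since the group names of these labels were not followed, the treatment they give is uncertain too. Cd52 was at 941 and 786 CPM in the first pair of knockout pools and at 711 and 705 in the second, all above both control pools. Cd63 was at 337 and 392 in the first pair and at 497 and 399 in the second. Neutrophil markers summed to 49902 to 58514 CPM in the knockout pools against 13784 to 14911, with 8 of 9 counted and Cebpe itself at 0, and erythroid markers to 2723 to 4204 against 9045 to 10961. Their part in the members' values was not tested.

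**Figure D5:**
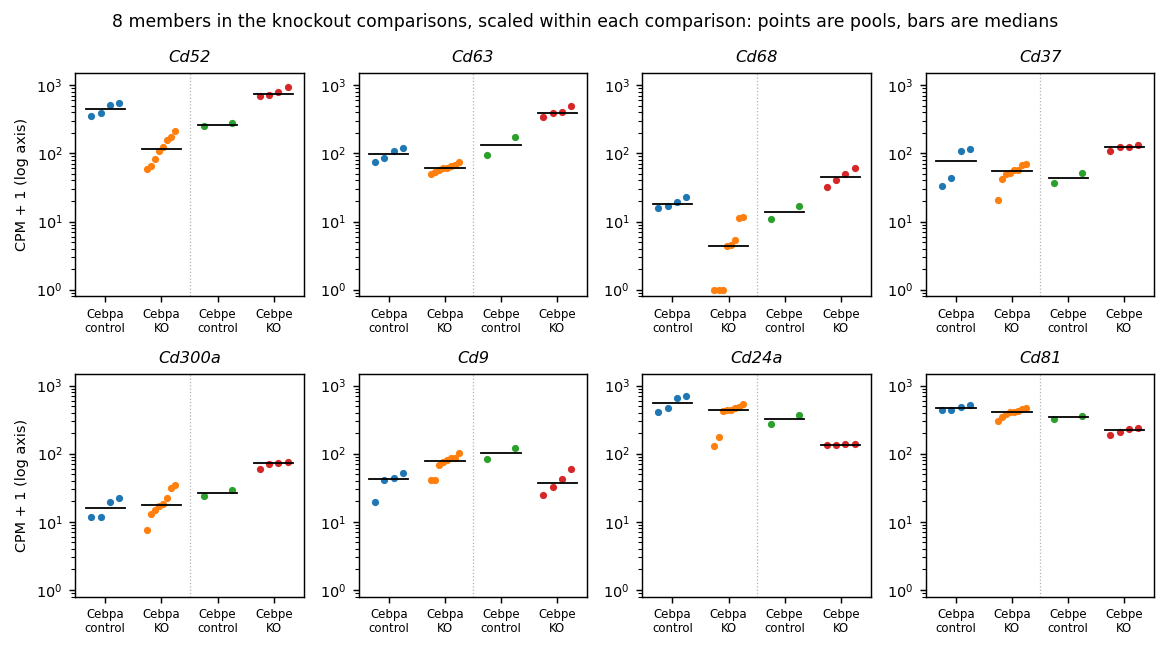
CPM + 1 (log axis), scaled within each comparison, of 8 members in Cebpa control (4 pools), Cebpa knockout (8), Cebpe control (2) and Cebpe knockout (4, both Cebpe groups by the authors' table); points are pools, placed by value, and bars are medians. Cd52 is lower in the Cebpa knockout than in its control in every pool and higher in the Cebpe knockout than in its control in every pool.

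Other surface antigens whose genes carry names of their own, most but not all with a CD number, were followed beside the members. Of 70 such genes on a list, 57 were tested in the gates: 14 were higher and 20 lower in the CD41 gate (beside 20.4% and 22.3% of all genes), 21 and 15 in the Flt3 Csf1r gate (19.8% and 20.0%), and 29 and 16 in the Irf8-GFP MHCII gate (25.5% and 24.1%). In the CD41 gate the platelet glycoproteins Gp9 (5.02 ± 0.18, adjusted p = 5.22e-19) and Gp5 (4.58 ± 0.20, adjusted p = 1.57e-17), which bind von Willebrand factor in a complex, rose with Cd9. In the Flt3 Csf1r gate, Flt3 (4.01 ± 0.23, adjusted p = 3.99e-14) and Csf1r (2.45 ± 0.16, adjusted p = 4.04e-13) encode the antigens sorted on. In the Irf8-GFP MHCII gate, Itgax, the CD11c integrin of dendritic cells, rose with Cd83 and Cd40 (4.47 ± 0.40, adjusted p = 1.56e-10). Of 32 tested in the surface gates, 8 were higher and 21 lower in MEP than in CMP (beside 25.0% and 25.9% of all genes), and 8 were higher and 7 lower in GMP than in CMP (10.3% and 10.4%). In MEP, Aqp1 (2.11 ± 0.12, adjusted p = 5.26e-26) and Ermap (2.92 ± 0.15, adjusted p = 3.36e-29), red cell blood group carriers without a CD number, rose with Cd24a. In the knockouts 2 of 31 were higher and 5 lower for Cebpa (beside 3.09% and 5.67%), and 24 of 50 higher and 6 lower for Cebpe (13.5% and 9.84%), where Itgam, the CD11b integrin of myeloid cells (3.00 ± 0.28, adjusted p = 3.13e-09), rose.

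The 11 members that passed the filter in no comparison had 51 to 141 UMIs in all, and their counts are given without a test. Most of them stood at a higher median CPM in the Irf8-GFP MHCII gate than in the unsorted pools. Unsorted medians at or near 0 are easily exceeded, and the share of all such low genes that stood higher in that gate was not counted. Cd22, an inhibitory Siglec of B cells, stood at 8.64, 17.3, 16.8 and 6.07 CPM there against 0 to 5.86 with a median of 0 in the unsorted pools (28 and 9 UMIs). Cd200r1, a receptor that calms myeloid cells, stood at 8.64, 9.42, 8.42 and 6.07 against 0 to 4.23 with a median of 1.45 (19 and 13 UMIs). For both, each gate pool lay above each unsorted pool. Cd300c, an activating CD300 receptor, stood at 13.0, 12.6, 4.21 and 4.05 against 0 to 3.85 with a median of 0 (21 and 4 UMIs), also without overlap. Cd22, Cd200r1 and Cd300c were named after their values were seen. The share of all genes without overlap between these pools was not counted, so their separation is description only. For Cd84, a SLAM receptor (17 and 15 UMIs), Cd72, a B cell coreceptor (17 and 10), Cd274, the checkpoint ligand PD-L1 (19 and 32), Cd2, an adhesion receptor of T and natural killer cells (16 and 24), Cd160, a receptor of natural killer cells (11 and 22), and Cd247, the zeta chain of the T cell receptor (10 and 13), the ranges overlapped.

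Cd248, a stromal antigen also called endosialin, had 3 UMIs in the Irf8-GFP MHCII gate, 0 in the CD41 and Flt3 Csf1r gates and 69 in the unsorted pools. Among unsorted cells with surface readings it stood at 3.12 to 20.9 with a median of 11.7 CPM in the MEP sums (66 UMIs), with 2 UMIs in CMP and 1 in GMP. Cd2 too was counted mainly in MEP, with 20 UMIs against 0 in CMP and 3 in GMP. Cd14, the co-receptor for lipopolysaccharide, had 26 UMIs in GMP and 2 each in CMP and MEP. Sums of the MEP gate are the deepest of the 3, so these UMI counts are not levels.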

How the data were processed

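Single cells were sequenced by MARS-seq in 54 pools. The authors deposited UMI counts per gene and well, not normalized, and a well table with each cell's sorting group, batch and plate. That table also holds the surface intensities recorded at sorting, which were used as the authors deposited them, in units no source states, and only by rank within a plate. Per the submitters' processing notes, reads were demultiplexed with bcl2fastq 2.15.0.4 and the build was mm9; the aligner is not given in the sources used.

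Wells with at least 500 UMIs were kept (8399 of 10260 cells) and their counts summed per pool. Doublets were not called, since each well received a sorted cell. Sums were fitted with edgeR 4.0.16 (R 4.3.3; TMM, filterByExpr, quasi-likelihood test, Benjamini-Hochberg adjustment over all genes passing the filter, threshold 0.05), one fit per family: the gates with the unsorted cells, the Cebpa groups, the Cebpe groups, and the surface gates with the pool as a block. SEs are the log2 fold change over the root of the F statistic. Groups at 0 UMIs were set to 3 counts for bounds, which cover counting error only, like the 95% intervals of ratios. DESeq2 1.42.0 and the other alternatives are in the closing section. Members past the threshold were named in order of absolute log2 fold change, up to 30 per comparison, as were those with 1000 or more UMIs in kept cells, and the rest were counted; the low members of the last 2 paragraphs were named after their values were seen. The statistics were tested on simulated data. The members, the lists of other surface antigens and cell type markers, and the tests were chosen with earlier results of these data known.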

Additional observations from a re-analysis of the deposited data

Results flagged for a closer look

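In 43 groups of 4 to 10 pools checked for a pool that lay far from the rest, 2 values stood out, where chance flags about 1 group in 20. Both were in replicate 5 of the Irf8-GFP MHCII gate. Cd47 stood at 766 CPM there (364 UMIs) against 619 to 629 in the other 3 pools. Cd99l2 stood at 4.21 CPM (2 UMIs) against 12.6 to 14.2.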

How the results depend on the processing

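Of 916 values of called members under the alternatives, 792 kept direction and call, 111 kept direction only and 13 reversed. Counts of members called moved by over 1.5 times as follows, and the cause was not tested unless named. With all pools grouped by sample label the count was 7 for the CD41 gate, 0 for the Irf8-GFP MHCII against the Flt3 Csf1r gate (Cd24a -0.17, Cd9 -0.035) and 1 for Cebpa, and with all pools by the authors' table it was 20 for the pair of gates (Cd48 -0.42). By label, the Cebpe values turned to -6.35 for Cd177, 1.38 for Cd24a, -2.02 for Cd300a, -1.18 for Cd37, -1.54 for Cd52, -2.56 for Cd63, -1.86 for Cd68, 1.24 for Cd81 and 0.65 for Cd9, since most of these pools then change group. For Cebpa the count was 1 with upper-quartile scaling, 6 with no filter (more members tested), 9 without the control plate labelled Mx1-Cre and 1 without the other control plate. For GMP against CMP it was 4 with no filter, 4 at 1000 UMIs per cell and 0 with cells near a cut left out (Cd93 -0.12, 1 CMP sum remaining), and for MEP it was 24 with no filter. Leaving out 1 pool at a time gave 6 to 7 for the CD41 gate, 13 to 16 for Flt3 Csf1r, 22 to 25 for Irf8-GFP MHCII, 4 to 10 for the pair, 1 to 4 for Cebpa and 9 to 10 for Cebpe. With no replicate block the surface counts were 2 and 9, as with the pool as a block. No paired analysis was possible because, outside the surface gates, replicate numbers only follow accession order. A fit within shared batches was not run for the Flt3 Csf1r and Irf8-GFP MHCII gates, whose batches hold no unsorted pool. The fits within SB23 and SB25 by the authors' table and those without a Cebpa control plate were chosen after seeing the data.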
